A study of Mus musculus with 6 samples.

Results

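Epithelial cells keep their identity through a small set of regulators and the junction and surface proteins that these regulators sustain. Described here are 10 such genes in mouse 4T1 mammary carcinoma cells, of 23481 genes in the deposited count table. They were taken by symbol and comprise 6 regulators, Esrp1, Esrp2, Grhl2, Ovol1, Elf3 and Ehf, and 4 surface or junction genes, Cdh1, Epcam, Cldn4 and Cldn7. All 10 symbols were in the table, 1 row each. They were selected on their levels in the library labelled shAsns-1, with these data already known, so that library's values are given as a description, with no test.

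4T1 is a metastatic line from a mouse mammary tumour; the table names its cells 4T1_T, a name that the labels do not explain. Cells were infected with a hairpin against Asns, which encodes asparagine synthetase (shAsns-1 or shAsns-2), while controls received the hairpin shRenilla, named for a luciferase that mouse cells lack, and all were grown in DMEM with added non-essential amino acids. Messenger RNA was sequenced in bulk. Each hairpin has libraries A and B, but the shAsns-1 B column is 0 at every gene and was left out, which leaves 1 shAsns-1, 2 shAsns-2 and 2 shRenilla libraries. Whether A and B came from different cultures is not labelled. The p-values therefore set a difference only against the spread between these libraries, estimated partly from all genes together. Cells are not resolved, so fewer cells that express a gene and less RNA per cell cannot be told apart.

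ESRP1 and ESRP2 are RNA-binding proteins that set the epithelial form of many transcripts by alternative splicing. GRHL2, OVOL1, ELF3 and EHF are transcription factors of epithelia; GRHL2 activates Cdh1 and Cldn4 in mouse epithelia, and the OVOL proteins repress Zeb1. E-cadherin, the product of Cdh1, joins neighbouring cells at adherens junctions, EpCAM is an adhesion molecule of the epithelial surface, and claudins 4 and 7 are tight junction proteins. The ZEB and SNAI repressors shut such genes off during epithelial to mesenchymal transition by binding short E-box sequences in their promoters.

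Promoters are shown because these E-boxes are the letters through which the repressors described further on act. Of the 10 genes, 4 matched RefSeq promoters (GRCm38.p6, from 250 bases before to 50 after a start), which gave 5 sequences, since Cldn7 has 2 starts. Capitals mark CACCTG, or CAGGTG on the other strand. The strands and places are Epcam chr17:87635729-87636028 plus, Cldn4 chr5:134946885-134947184 minus, Cldn7 chr11:69965171-69965470 plus and Elf3 chr1:135258423-135258722 minus.
Epcam: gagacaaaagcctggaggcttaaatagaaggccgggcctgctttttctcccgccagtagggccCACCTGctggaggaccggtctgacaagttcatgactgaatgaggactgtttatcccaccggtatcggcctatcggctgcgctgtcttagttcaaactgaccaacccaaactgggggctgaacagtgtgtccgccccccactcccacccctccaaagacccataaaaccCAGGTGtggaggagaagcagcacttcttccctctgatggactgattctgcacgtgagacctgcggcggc
Cldn4: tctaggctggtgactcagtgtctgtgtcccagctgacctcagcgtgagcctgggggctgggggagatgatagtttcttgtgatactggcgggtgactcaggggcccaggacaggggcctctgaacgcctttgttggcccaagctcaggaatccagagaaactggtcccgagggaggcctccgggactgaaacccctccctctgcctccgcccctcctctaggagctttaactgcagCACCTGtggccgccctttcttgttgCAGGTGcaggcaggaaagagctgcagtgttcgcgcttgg
Cldn7: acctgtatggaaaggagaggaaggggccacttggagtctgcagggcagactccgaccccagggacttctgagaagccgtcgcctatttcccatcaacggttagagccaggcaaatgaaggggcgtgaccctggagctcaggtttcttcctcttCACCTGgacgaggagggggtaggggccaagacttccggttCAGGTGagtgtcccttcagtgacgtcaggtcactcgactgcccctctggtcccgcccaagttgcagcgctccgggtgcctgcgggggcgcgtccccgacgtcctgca
Elf3: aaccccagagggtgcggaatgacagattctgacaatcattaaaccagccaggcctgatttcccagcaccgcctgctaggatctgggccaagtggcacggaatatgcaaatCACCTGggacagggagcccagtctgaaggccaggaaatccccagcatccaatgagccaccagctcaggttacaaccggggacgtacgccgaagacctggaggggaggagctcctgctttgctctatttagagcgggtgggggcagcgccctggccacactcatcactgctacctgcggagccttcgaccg
The Epcam, Cldn4 and this Cldn7 promoter each held 2 such E-boxes and that of Elf3 held 1, while the Cldn7 promoter at chr11:69964529-69964828, not printed, held 0. Among 32851 mouse promoters of the same length, 20.2% held at least 1 and 2.88% at least 2. The GRHL palindrome AACCGGTT, present in 0.146% of all promoters, and its looser form AACCNGTT, in 2.09%, read on both strands and overlapping each other, were not found in these 5 windows. The letters are those of the reference mouse, not of the 4T1 genome, and a match is no evidence of binding. Esrp1, Esrp2, Grhl2, Ovol1, Ehf and Cdh1 are named without a promoter.

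The library labelled shAsns-1 held 10244753 gene reads, the shAsns-2 libraries 10472179 (A) and 13888327 (B), and the shRenilla libraries 15955168 (A) and 14287190 (B). Pairs of values are for libraries A and B in that order. Levels are given as CPM, counts per 1000000 gene reads of a library, and 3 reads, taken as the floor of detection, equal 0.293 CPM in the library labelled shAsns-1, 0.286 and 0.216 with shAsns-2 and 0.188 and 0.21 with shRenilla. The targeted gene, Asns, stood at 110 CPM in the library labelled shAsns-1, at 45.7 and 44.2 with shAsns-2, and at 58.7 and 56.9 with shRenilla. It was thus higher in the library labelled shAsns-1 than in shRenilla (log2 fold change 0.92, SE 0.101, adjusted p = 6.27e-05, edgeR), against the label, so no difference in that library is read as an effect of lower Asns. In shAsns-2 the log2 fold change was -0.34 (SE 0.0882, adjusted p = 0.216, edgeR). An adjusted p here is Benjamini-Hochberg over 12457 tested genes, with 0.05 as the threshold. The library labelled shAsns-1 stands apart from the rest: a read was found for 17672 genes there, 15392 and 15052 in shAsns-2 and 15240 and 15177 in shRenilla, and 1122 olfactory receptor genes summed to 41.5 CPM there, 11.9 and 7.99 in shAsns-2 and 9.15 and 8.89 in shRenilla. Its part in the values that follow was not tested.

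**Figure D1:**
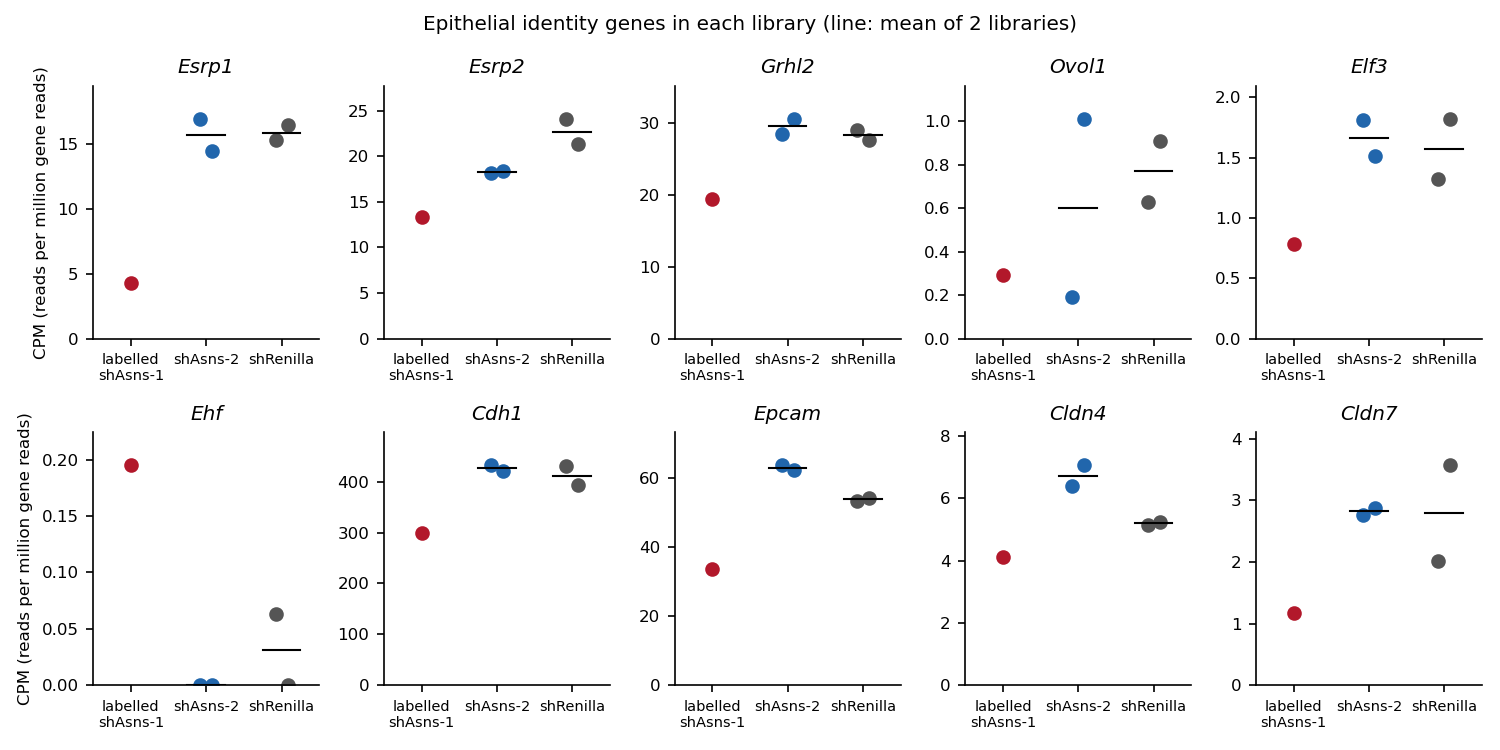
CPM of each of the 10 genes, one panel per gene with its own linear axis and one point per library. Each panel shows the library labelled shAsns-1, shAsns-2 and shRenilla, from left to right. Cdh1 has the highest CPM values, and Esrp1 stands at 4.29 CPM in the library labelled shAsns-1, below all 4 other libraries.

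Per length, these genes spanned a wide range in 4T1 cells. As RPKM, which is CPM divided by the exon length in kilobases, the shRenilla means were 90.1 ± 5.77 for Cdh1, 24.5 ± 0.252 for Epcam, 5.24 ± 0.453 for Esrp2, 3.29 ± 0.129 for Grhl2 and 2.86 ± 0.0429 for Cldn4 (SD, n = 2). Below these came Esrp1 at 2.51 ± 0.122, Cldn7 at 1.43 ± 0.568, Elf3 at 0.707 ± 0.161 and Ovol1 at 0.22 ± 0.0574, with Ehf near 0. Cdh1 exceeded 97.5% of the genes with a read, Epcam 86.8% and Esrp1 46%. Neighbours in that order did not overlap between the 2 shRenilla libraries, but in shAsns-2 Cldn4 (3.52 and 3.89 RPKM) and Grhl2 (3.30 and 3.55) did. In the library labelled shAsns-1, Grhl2 and Cldn4 were level at 2.26 RPKM, and Esrp1 (0.681) stood close to Cldn7 (0.601).

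Esrp1 differed most among the regulators with enough reads to measure. It had 4.29 CPM (44 reads) in the library labelled shAsns-1, 16.9 and 14.4 with shAsns-2 (177 and 200 reads), and 15.3 and 16.4 with shRenilla (244 and 234 reads). The other 4 libraries overlap, and the library labelled shAsns-1 lies below all of them. Its log2 fold change against shRenilla was -1.89 (SE 0.218), that is 0.27-fold (95% interval 0.196 to 0.371), a description since the gene was chosen by this value. In shAsns-2 the log2 fold change was 0.00 (SE 0.13, 95% interval -0.27 to 0.28, adjusted p = 0.994, edgeR).

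Esrp2, the paralogue of Esrp1, was lower there by less. Its CPM was 13.3 in the library labelled shAsns-1, 18.2 and 18.4 with shAsns-2, and 24.1 and 21.3 with shRenilla. The 3 groups did not overlap, with shAsns-2 in the middle. The log2 fold change was -0.79 (SE 0.16) in the library labelled shAsns-1. It was -0.29 (SE 0.117) in shAsns-2, where the adjusted p was 0.446 (edgeR). The RPKM ratio of Esrp1 to Esrp2 was 0.223 in the library labelled shAsns-1, 0.638 and 0.54 with shAsns-2, and 0.436 and 0.528 with shRenilla, so the paralogues were not lower in proportion.

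Grhl2, a factor that sustains junction gene expression, had 19.4 CPM in the library labelled shAsns-1, 28.5 and 30.6 with shAsns-2, and 29.1 and 27.6 with shRenilla. It was below all 4 other libraries, and shAsns-2 overlapped shRenilla. The log2 fold change was -0.56 (SE 0.14) in the library labelled shAsns-1 and 0.09 (SE 0.103, adjusted p = 0.82, edgeR) in shAsns-2.

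The remaining regulators were scarce. Elf3, an ETS factor of glandular epithelia, had 0.781 CPM (8 reads) in the library labelled shAsns-1, 1.81 and 1.51 with shAsns-2, and 1.32 and 1.82 with shRenilla. Its log2 fold change of -1.0 (SE 0.557) in the library labelled shAsns-1 had a 95% interval of -2.18 to 0.18, which holds 0, and with shAsns-2 it was 0.11 (SE 0.355, adjusted p = 0.946, edgeR). Ovol1, a zinc finger repressor, had 3 reads in the library labelled shAsns-1, 2 and 14 with shAsns-2, and 10 and 13 with shRenilla, at the floor in the first and under it in shAsns-2 A. Against the summed shRenilla libraries its ratio was 0.385, with a counting interval of 0.074 to 1.27, and shAsns-2 differed from shRenilla by -0.20 on the log2 scale (SE 0.599, adjusted p = 0.942, edgeR). Ehf, another ETS factor, had 2 reads in the library labelled shAsns-1, 0 and 0 with shAsns-2 and 1 and 0 with shRenilla, was not tested and gets no fold. A difference in Ovol1 or Ehf was not detectable at this depth.

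Among the surface and junction genes, Cdh1 was measured with most reads. It had 299 CPM in the library labelled shAsns-1, 432 and 422 with shAsns-2, and 431 and 393 with shRenilla. The library labelled shAsns-1 was below the others, and shAsns-2 (427 ± 7.08 CPM) and shRenilla (412 ± 26.4 CPM, SD, n = 2 each) overlapped. The log2 fold change was -0.48 (SE 0.102) in the library labelled shAsns-1, or 0.719-fold, and 0.08 (SE 0.0808, 95% interval -0.09 to 0.25, adjusted p = 0.794, edgeR) in shAsns-2.

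Epcam had 33.6 CPM in the library labelled shAsns-1, 63.7 and 62.3 with shAsns-2, and 53.5 and 54.2 with shRenilla. Here shAsns-2 lay above shRenilla and the library labelled shAsns-1 below both. The log2 fold change was -0.69 (SE 0.116) in the library labelled shAsns-1. With shAsns-2 it was 0.25 (SE 0.0857, 95% interval 0.07 to 0.43, adjusted p = 0.346, edgeR).

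The claudins had fewer reads. Cldn4 had 4.1 CPM (42 reads) in the library labelled shAsns-1, 6.4 and 7.06 with shAsns-2, and 5.14 and 5.25 with shRenilla. Again shAsns-2 was above shRenilla, by 0.41 on the log2 scale (SE 0.183, adjusted p = 0.495, edgeR), while the library labelled shAsns-1 had -0.35 (SE 0.263) with an interval of -0.91 to 0.20. Cldn7 had 1.17 CPM (12 reads) in the library labelled shAsns-1, 2.77 and 2.88 with shAsns-2, and 2.01 and 3.57 with shRenilla. The shRenilla libraries themselves were far apart for Cldn7, and the ratio of the library labelled shAsns-1 was 0.584 to shRenilla A (counting interval 0.274 to 1.16) and 0.328 to shRenilla B (0.159 to 0.624). The fitted log2 fold change of Cldn7 was -1.24 (SE 0.483) in the library labelled shAsns-1, and -1.60 without shRenilla A and -0.79 without shRenilla B. Under shAsns-2 it was 0.07 (SE 0.3, adjusted p = 0.959, edgeR).

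**Figure D2:**
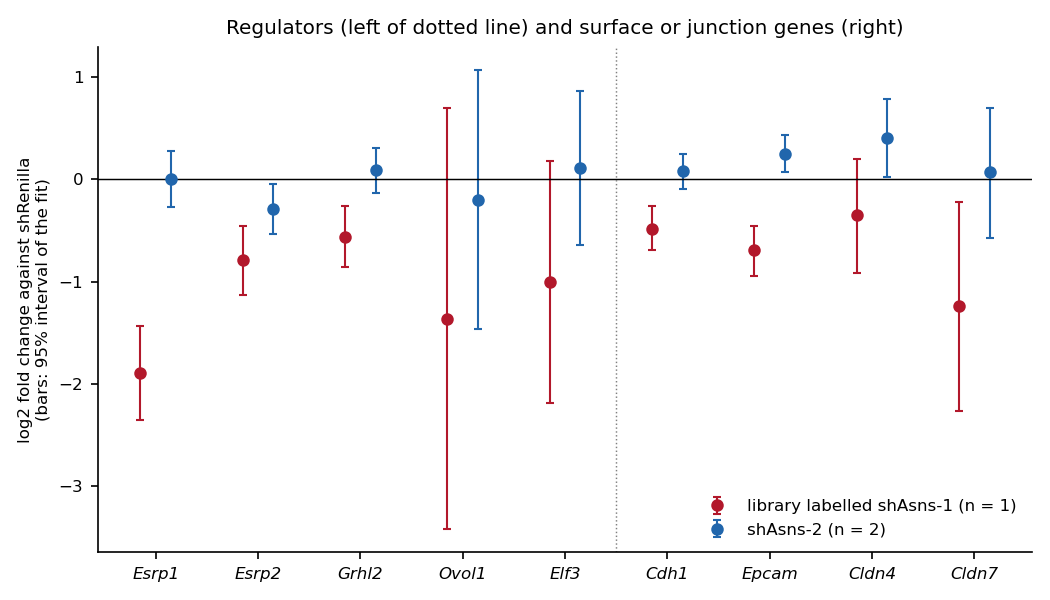
Log2 fold change against shRenilla with its 95% interval for the 9 tested genes, for the library labelled shAsns-1 and for shAsns-2. All 9 points of the library labelled shAsns-1 are below 0, from -0.35 for Cldn4 to -1.89 for Esrp1, and those of shAsns-2 lie between -0.29 and 0.41.

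Regulators and their surface and junction genes were therefore low in the same library. In the library labelled shAsns-1, 9 of the 10 genes lay below both shRenilla libraries (36.7% of all tested genes did), Ehf being the exception. Of the 10, 8 lay below all 4 other libraries (24.4% of all tested genes), Ovol1 and Ehf being the exceptions. The median log2 fold change was -1.0 over the 5 tested regulators and -0.58 over the 4 surface and junction genes, and -0.01 over all genes. The regulator median is the value of Elf3, with 8 reads in that library, so it does not rank regulators against the surface and junction genes. Regulators with more reads stood at -1.89 (Esrp1), -0.79 (Esrp2) and -0.56 (Grhl2). These counts and medians follow from how the genes were chosen, and 1 library is 1 observation of all these genes together.

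In shAsns-2 none of the 9 tested genes passed in edgeR, DESeq2 or limma-voom, where 0.0642% of all tested genes were called by edgeR. At an unadjusted p under 0.05, edgeR listed 3 (Epcam and Cldn4 higher, Esrp2 lower), DESeq2 1 and limma-voom 3. Of all 12457 tested genes, edgeR listed 1200 at that level, DESeq2 416 and limma-voom 1182. Both shAsns-2 libraries were above both shRenilla libraries for 2 of the 10 genes (16.6% of all tested genes) and below for 1 (25.8%). The medians were 0.00 for the regulators and 0.17 for the surface and junction genes. Both comparisons use the same shRenilla libraries.

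The wider programme was read from lists of other genes, also assembled with earlier results of these data known. Across 60 tested of 80 epithelial list genes (transcription factors, adherens junction, tight junction and polarity, and surface, protease and trafficking genes), 9 fell and 1 rose in the library labelled shAsns-1, that is 15% of them lower against 2.06% of all tested genes, and 16.7% called in either direction against 4.37%. Their median log2 fold change was -0.20 and that of all genes -0.01. These tests assume that the lone library would vary like the replicated ones. In DESeq2, 1 rose and 5 fell; 3 of the 10 edgeR calls, Mal2 and Myo5b among them, had no adjusted p there. In shAsns-2, 0 of the 60 passed in edgeR, DESeq2 or limma-voom, and the median was -0.02. At an unadjusted p under 0.05, edgeR listed 8 of them (3 higher and 5 lower), DESeq2 3 and limma-voom 9. Of all 12457 tested genes, these tools listed 1200, 416 and 1182 in that order. Unadjusted counts for the library labelled shAsns-1 further on come without that share, so they do not show whether a list is unusual.

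The list genes called lower came from the tight junction and polarity list and from the surface, protease and trafficking list. Of 21 tested tight junction and polarity genes, 19 had a negative log2 fold change in the library labelled shAsns-1 and 2 a positive one. Their median was -0.30, against -0.01 over all tested genes. Marveld2, which encodes tricellulin of the corners where cells meet, had 16.1 CPM in the library labelled shAsns-1, 26 and 29.3 with shAsns-2, and 27 and 27.2 with shRenilla (log2 fold change -0.76, SE 0.148, adjusted p = 0.00737, edgeR). Ocln, encoding occludin, had -0.87 (adjusted p = 0.0301, edgeR), a call lost in DESeq2 (0.14), limma-voom (0.0559) and without shRenilla A (0.127). Pard6b, a polarity gene, had -0.52 (adjusted p = 0.0265, edgeR), lost without shAsns-2 A (0.0559), shAsns-2 B (0.054) or shRenilla A (0.0876) and with a GC trend removed (0.0702). The adherens junction partners of Cdh1 did not pass, 0 of 13 in edgeR (4 lower at an unadjusted p under 0.05) or DESeq2 (2) and 1 lower in limma-voom. Among them Ctnnb1, the beta-catenin that binds E-cadherin, had 1350 CPM in the library labelled shAsns-1, 1170 and 1303 with shAsns-2, and 1273 and 1092 with shRenilla.

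Of 19 tested surface, protease and trafficking genes, 13 had a negative log2 fold change in the library labelled shAsns-1 and 6 a positive one. Their median was -0.13, against -0.01 over all tested genes. Macc1 had -1.31 (SE 0.148), Mal2, a trafficking protein of polarised cells, -1.95 (SE 0.422), Cdcp1, a surface glycoprotein, -0.49 (SE 0.107) and Myo5b, a myosin of recycling endosomes, -1.60 (SE 0.367), which was lost in limma-voom (0.0595) and without shRenilla A (-1.27, adjusted p = 0.0983). Cd24a, a surface glycoprotein, rose, with 1059 CPM in the library labelled shAsns-1, 904 and 831 with shAsns-2, and 808 and 769 with shRenilla (0.41, adjusted p = 0.0245, edgeR), lost without shAsns-2 A (0.1) or shAsns-2 B (0.0963).

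**Figure D3:**
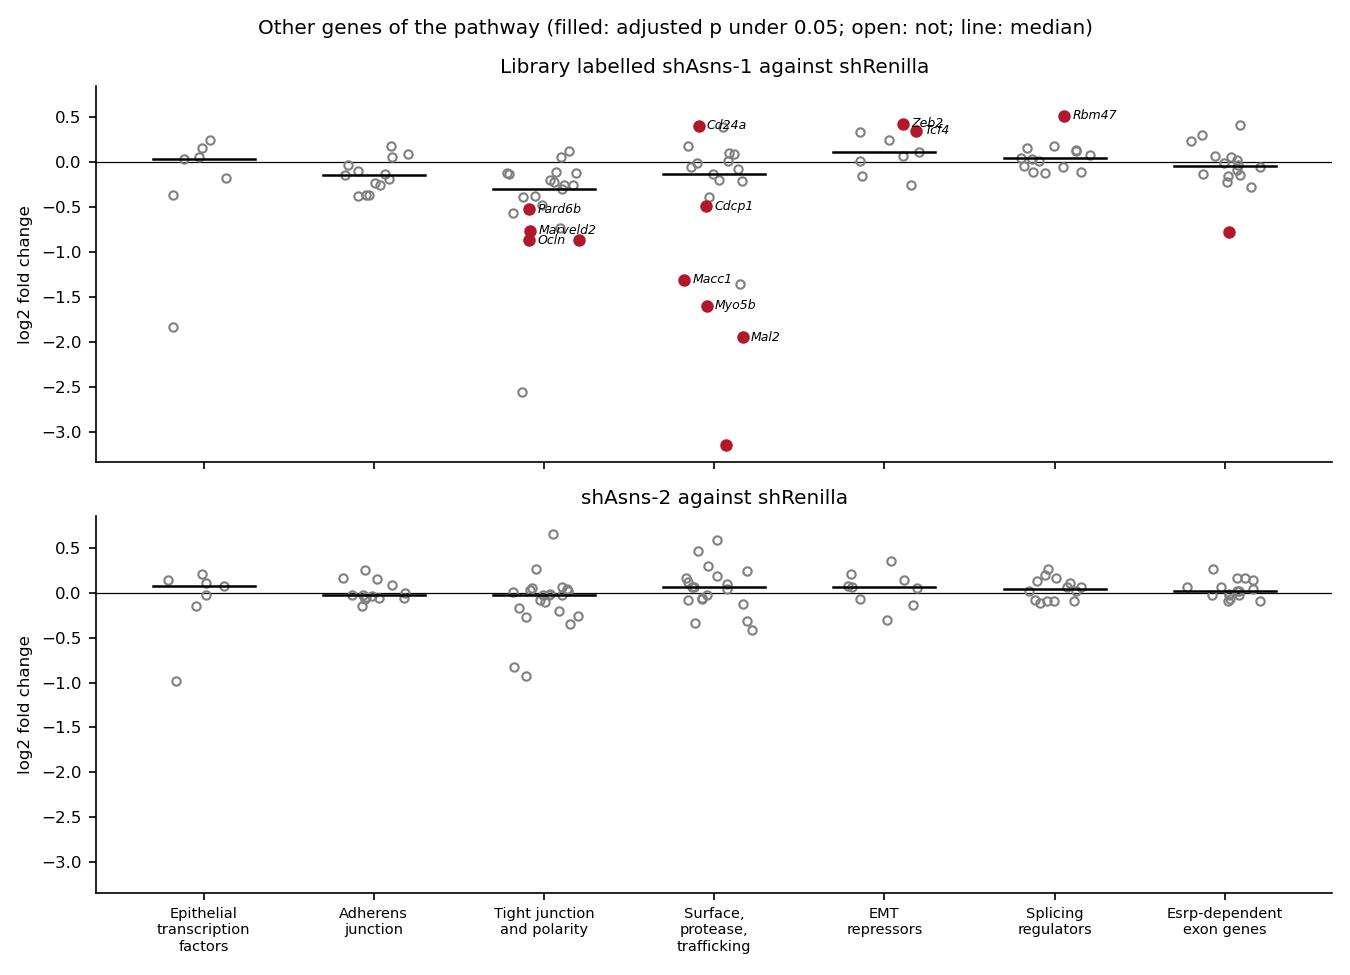
Log2 fold change over shRenilla of the library labelled shAsns-1 (upper panel) and of shAsns-2 (lower panel) for tested genes of 7 lists, one point per gene, with genes past the threshold filled and each list's median as a line. Macc1 (-1.31) and Mal2 (-1.95) are among the filled genes of the epithelial lists, and Zeb2 (0.43) and Tcf4 (0.35) are the filled repressors.

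Among 9 tested repressors of epithelial genes, 2 (22.2%) rose in edgeR and 1 in DESeq2, where 2.31% of all tested genes were called higher by edgeR. Zeb2 had 281 CPM in the library labelled shAsns-1, 235 and 233 with shAsns-2, and 216 and 198 with shRenilla (log2 fold change 0.43, SE 0.0976, adjusted p = 0.0204, edgeR), a call lost without shAsns-2 A (0.075) or shAsns-2 B (0.0731). Tcf4, encoding the E-box factor E2-2, had 0.35 (adjusted p = 0.0465, edgeR) and lost its call in DESeq2 (0.0638) and without shAsns-2 A (0.151), shAsns-2 B (0.148) or shRenilla A (0.0616) and with the GC trend removed (0.0588). Zeb1 was scarce, with 2.34 CPM in the library labelled shAsns-1, 2.39 and 1.8 with shAsns-2, and 2.57 and 2.03 with shRenilla, and the fold change was 0.01 (SE 0.388). Snai1 and Twist1 had 0.07 and 0.25 (adjusted p = 0.901 and 0.317, edgeR), and Snai2 had at most 1 read in a library and was not tested.

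Of 8 tested mesenchymal markers 1 (12.5%, against 2.06% of all tested genes) fell and 0 rose, in edgeR, DESeq2 and limma-voom alike, with 1 higher and 1 lower at an unadjusted p under 0.05 in edgeR. Fn1, which encodes fibronectin, fell, with 1333 CPM in the library labelled shAsns-1, 2048 and 1726 with shAsns-2, and 2147 and 1960 with shRenilla (-0.64, SE 0.117, adjusted p = 0.00554, edgeR), opposite to the direction its marker list is named for. Vim, encoding vimentin, had 3575 CPM in the library labelled shAsns-1, 3473 and 3318 with shAsns-2, and 3299 and 3433 with shRenilla, with adjusted p = 0.727 (edgeR) in the library labelled shAsns-1. Cdh2 had 1 read, in the library labelled shAsns-1, and 0 elsewhere.

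Splicing itself cannot be read from gene counts, which pool all isoforms. Of 14 tested splicing regulators other than the ESRPs, 1 (7.14%, against 2.31% of all tested genes) rose. Rbm47, an epithelial RNA-binding protein, had 101 CPM in the library labelled shAsns-1, 81.3 and 83.6 with shAsns-2, and 73 and 66.4 with shRenilla (0.52, adjusted p = 0.00926, edgeR). Rbfox2 and Ptbp1, other regulators of alternative exons, had -0.05 and -0.12 (adjusted p = 0.845 and 0.536, edgeR). Of 16 genes with known ESRP-dependent exons 1 (6.25%, against 2.06% of all tested genes) fell and 0 rose in edgeR, DESeq2 and limma-voom alike, with 3 higher and 2 lower at an unadjusted p under 0.05 in edgeR. Ctnnd1, Fgfr2 and Cd44, whose isoforms mark the epithelial state, had -0.14, -0.28 and -0.05 in total count (adjusted p = 0.473, 0.239 and 0.821, edgeR).

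Of 7 other tested epithelial transcription factors, 0 passed in edgeR, DESeq2 or limma-voom (1 higher and 1 lower at an unadjusted p under 0.05 in edgeR), and the close relatives of the regulators were scarce. Grhl1 had 5 reads in the library labelled shAsns-1, 11 and 10 with shAsns-2 and 34 and 19 with shRenilla (log2 fold change -1.83, SE 0.653, adjusted p = 0.124, edgeR). Ovol2 had 2 to 6 reads a library and was not tested.

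Esrp2 and Cdh1 lie on chromosome 8, at chr8:106130319-106136974 minus and chr8:106603351-106670246 plus (GRCm38), 466 kb apart. Of the 8 table genes between them, 6 were tested, and their log2 fold changes in the library labelled shAsns-1 ran from -0.43 to 0.09 with a median of -0.27, 5 of them negative. Cdh1 (-0.48, SE 0.102) and Esrp2 (-0.79, SE 0.16) were below all 6, Cdh1 by less than its SE. Esrp1 lies on chromosome 4 at 11331933 to 11386783 (minus), Grhl2 on chromosome 15 at 37233036 to 37363569 (plus) and Epcam on chromosome 17 at 87635979 to 87651129 (plus). Exons of Esrp1, Esrp2, Grhl2, Ovol1 and Elf3 overlap genes on the other strand by 127, 338, 169, 766 and 162 bases in the order given. The strand setting of the counting is not stated, so reads there cannot be assigned, which bears most on Ovol1.

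Genes with a profile across the 5 libraries like that of Esrp1 were ranked by Euclidean distance of log2 CPM, centred on shRenilla. The 8572 candidates had a mean log2 CPM of 3 or more. Predicted gene models and genes named only by a clone or accession were left out. The nearest was Lamb3, a laminin chain of epithelial basement membrane (distance 0.246), with 14 CPM in the library labelled shAsns-1, 43.8 and 42.8 with shAsns-2, and 45.7 and 44.1 with shRenilla. Next came Krt14, a basal keratin (0.382), Rgs16 (0.424), Adam12 (0.431) and Havcr2 (0.472). For Cdh1 the nearest were Ubap2 (0.0601), Fam57a (0.0688), Prrg4 (0.0728), Vdr, the vitamin D receptor (0.0861), and Madd (0.0868).

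**Figure D4:**
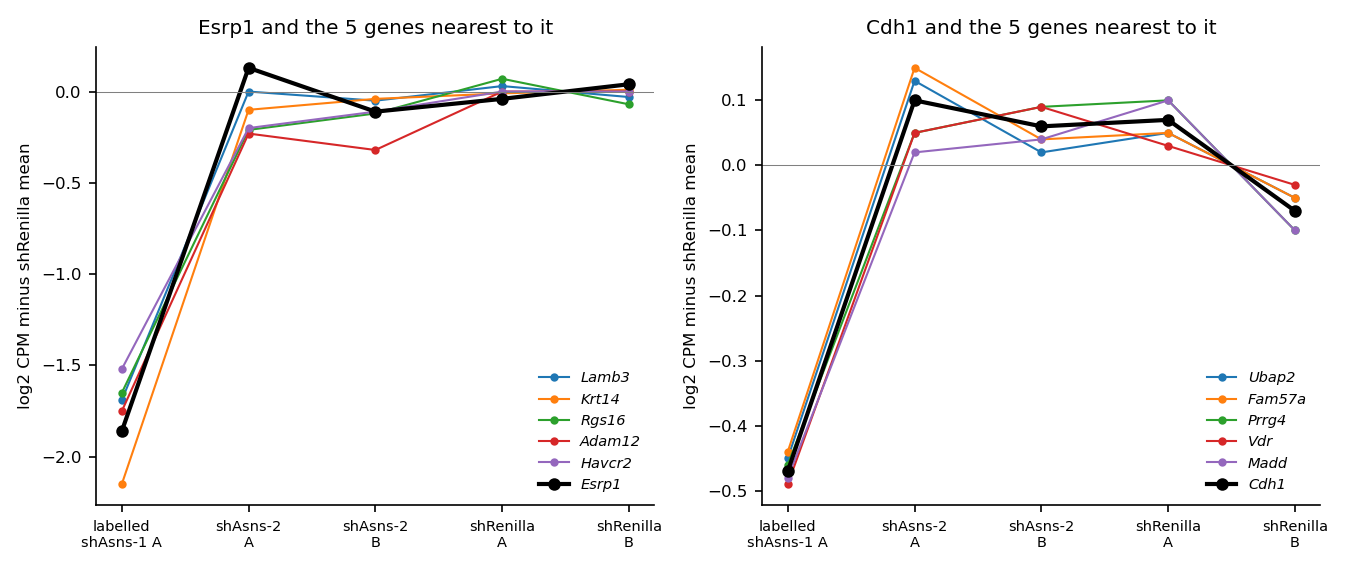
Log2 CPM minus the shRenilla mean in the library labelled shAsns-1, shAsns-2 and shRenilla, for Esrp1 and Cdh1 and the 5 nearest genes of each. Esrp1 and its neighbours dip to between -1.52 and -2.15 in the library labelled shAsns-1, and those of Cdh1 to between -0.44 and -0.49.

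Markers of other cell types were summed per library. Fibroblast markers (9 genes) summed to 39.7 CPM in the library labelled shAsns-1 (8 with a read), 30 and 29.9 in shAsns-2 (4 and 5), and 29 and 29.2 in shRenilla (3 and 5), and Lum was at 0 in every library. Nearly all of that sum was Pdgfra, at 38.1 CPM in the library labelled shAsns-1, 29.6 and 29.4 with shAsns-2, and 28.5 and 28.8 with shRenilla. Leukocyte markers (9 genes) summed to 12.9 in the library labelled shAsns-1, 12.6 and 11.6 with shAsns-2, and 11.5 and 14.7 with shRenilla, with Lyz2 and Laptm5 at 0 in every library. Endothelial markers (6 genes) summed to 5.27 in the library labelled shAsns-1, 5.25 and 3.6 with shAsns-2, and 2.63 and 3.15 with shRenilla, of which Tie1 alone made 3.9 in the library labelled shAsns-1, 3.82 and 3.24 with shAsns-2, and 2.13 and 2.52 with shRenilla. Epithelial markers (6 genes) summed to 853 in the library labelled shAsns-1, 1054 and 1045 with shAsns-2, and 1003 and 983 with shRenilla. This set holds the 4 surface and junction members, which were selected on that library, and otherwise keratin genes. The 4 members alone summed to 338 in the library labelled shAsns-1, 505 and 494 with shAsns-2, and 491 and 457 with shRenilla. The lower epithelial sum is therefore not independent of the selection. Against shRenilla the gap was about as large in the members alone as in the whole set, so the keratin part was about level. The part of the fibroblast and endothelial sums in the lower levels of the members was not tested. Fold changes in the library labelled shAsns-1 were also lower in genes of higher GC content (Spearman rho = -0.321 across 8879 genes, which are not independent replicates), and the exons of the 9 tested members are 48 to 57.3% GC. With that trend removed, Esrp1 stood at -1.89, Esrp2 at -0.72, Grhl2 at -0.55, Cdh1 at -0.42, Epcam at -0.62, Cldn4 at -0.28 and Cldn7 at -1.17.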

How the data were processed

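The deposited table held whole-number read counts per gene, made by the authors with Bowtie2 and HTSeq on mm10, per the submitters' processing notes. Trizol was used for RNA and libraries were made with the Nugen Ovation RNAseq V2 kit, per the labels' protocols. For tool versions, annotation and strand: not given in the sources used here. The 5 tally rows stayed out of library sizes and tests: reads in no feature made up 36.2, 37.6, 38.3, 38.2 and 36.1% of all reads in the library labelled shAsns-1, shAsns-2 A and B and shRenilla A and B.

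Groups came from the sample titles. The design assumed 6 libraries. It was fitted to 5 with 2 residual degrees of freedom, the lone shAsns-1 library assumed to vary like the others (median SE of a log2 fold change 0.142, and 0.112 for shAsns-2). The members and lists were chosen with earlier results of these data known. Counts were filtered with filterByExpr (minimum count 10), scaled by TMM and tested with edgeR 4.0.16's quasi-likelihood test (R 4.3.3). A run on simulated counts covered only the shAsns-2 comparison, not that of the lone shAsns-1 library. DESeq2 1.42.0, limma 3.58.1 (voom), other scalings, no filter, a replicate block, leaving out each library and, added after seeing the data, removal of the GC trend were alternatives. Genes named were Asns, the members, up to 6 called genes per list, a set of transition and splicing genes, and the 5 nearest profiles. Of the called list genes, 3 are counted but not reported by name here. Where a name falls outside this rule, as with Lum, Lyz2, Laptm5, Pdgfra and Tie1, it was chosen after its values were seen. CPM divides by total gene reads; RPKM uses GENCODE vM21 exon lengths (GRCm38). Confidence intervals of ratios and the floor cover counting error only.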

Additional observations from a re-analysis of the deposited data

Results flagged for a closer look

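For 5 members the library labelled shAsns-1 lay below the shRenilla mean and both shAsns-2 libraries lay above it. The share of all tested genes with this pattern is not given here, so the count does not show whether it is unusual. As log2 CPM minus that mean, in the order library labelled shAsns-1, shAsns-2 A and shAsns-2 B, Epcam stood at -0.69, 0.27 and 0.23 and Cldn4 at -0.34, 0.33 and 0.45, with shAsns-2 above both shRenilla libraries. Grhl2 stood at -0.55, 0.04 and 0.13, Cdh1 at -0.47, 0.10 and 0.06, and Cldn7 at -1.11, 0.08 and 0.12, and for these 3 shAsns-2 overlapped the shRenilla libraries. None of the 5 passed in shAsns-2. The difference between the hairpins was not tested, only 1 library carries the shAsns-1 label, Asns goes against that label, and the members were chosen on its values.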

How the results depend on the processing

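All 99 alternative values of the 9 tested members in the library labelled shAsns-1 were negative: 94 moved by less than the spread between replicates and 5 by more. All of them reuse the library on which the members were chosen, so their shared sign is no independent support. In shAsns-2, 0 of 9 members and 0 of 60 list genes passed under any alternative run, DESeq2 and limma-voom included. Values there changed sign for Esrp1 (-0.00 in limma-voom, -0.11 to 0.13 leaving out a library), Ovol1 (-1.91 to 0.42), Elf3 (-0.11 to 0.34) and Cldn7 (-0.30 without shRenilla A, up to 0.51). In the library labelled shAsns-1, Zeb1 reversed with no filter (-0.01), a replicate block (-0.16), GC trend removed (-0.03) and leaving out a library (-0.15 to 0.20), as did Snai1 (block -0.03, leave-one-out -0.05 to 0.21). The cause was not tested.

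Genes called in the library labelled shAsns-1, 544 in edgeR, numbered 919 with no filter, 253 in DESeq2, 924 with a replicate block, 344 with the GC trend removed and 290 to 825 leaving out a library (290 and 302 without shAsns-2 A and B, 825 without shRenilla B). For shAsns-2, 8 became 114 with no filter, 178 with the block, 2 with the GC trend removed and 0 to 47 (0 without shAsns-2 A or shRenilla B, 47 without shRenilla A). List genes called in the library labelled shAsns-1 numbered 6 in DESeq2. Differences of A minus B in shAsns-2 and in shRenilla had Pearson r = -0.0173 over 12457 genes. Resting on 2 libraries per group, that value cannot decide whether a letter marks a shared batch. With letters as a replicate block, Asns passed in shAsns-2 (-0.33, adjusted p = 0.0388, edgeR) and Grhl1 in the library labelled shAsns-1 (-2.11, adjusted p = 0.038, edgeR). With 1 shAsns-1 library, and with 12 reads or fewer there for Ovol1, Elf3, Ehf and Cldn7, depth limits those values.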
